A study of Arabidopsis thaliana with 12 samples.

Results

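PUB19 (AT1G60190), PUB24 (AT3G11840) and PUB43 (AT1G76390) encode plant U-box proteins of Arabidopsis thaliana, and their transcripts were followed in leaves after a remote wound and after an injected electric current. The 3 genes were picked by name, with results of these arrays already known, from the 13356 genes that could be named on the ATH1 array, and each is read by 1 probe set. All 4 comparisons that can be made here were in view when they were picked, so their levels and changes are given as a description, with errors and without a test. The other 6 genes whose symbol has the stem PUB, which are PUB15, PUB22, PUB23, PUB25, PUB26 and PUB49, were taken as context whatever their values, and those were tested. Of the 22 genes with a PUB symbol in the reference gene table, 9 are therefore described, and the others, among them PUB18, were not analysed here.

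Ubiquitin is passed from an activating enzyme to a conjugating enzyme and from there, with the help of a ligase, to a target protein, which is often sent to the proteasome. The U-box is a domain that docks the conjugating enzyme much as a RING finger does but without bound zinc, and plants hold far more U-box ligases than animals. In Arabidopsis several of them are known as brakes on stress signalling. PUB19 lowers the response to abscisic acid and drought together with its close relative PUB18, PUB24 acts with PUB22 and PUB23 to dampen the immune response to microbial patterns, and PUB43 is the close relative of SAUL1, also called PUB44, a ligase that holds back senescence and cell death.

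The 12 arrays come from 5-week-old soil-grown plants of the accession Col-0, with no mutant or transgenic line, and form 4 groups of 3. The first pair are samples of leaf 13, one group from unwounded plants and one harvested 1 h after the apical 40% of leaf 8 of the same plant had been wounded with forceps, so that the leaf measured was not the wounded one. The other pair are blades of leaf 8, one group with a platinum wire in the petiole and no current, called wired leaf 8 here, and one harvested 1 h after 40 µA had been passed into the petiole for 10 s. The labels do not say whether a replicate is 1 plant or a pool, so errors and p-values measure only how far these samples spread, and that spread may be technical. The labels of the control samples give no harvest time.

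Values are RMA expression values on the log2 scale, so a difference of 1 is a doubling. Arrays of a group correlated with r from 0.991 to 0.996 over genes. The leaf markers RCA, LHCB4.1 and LHCB4.2, 3 measured of 6 listed, lay between 12.4 and 13.0 on all arrays, while the root markers PYK10 and EXPA7, 2 measured of 4, lay between 1.93 and 3.52. A gene is called measured where a probe set carried that gene alone in the platform's annotation. Genes not called measured may still be on the array. Whole leaf tissue was measured, in which more cells of a type and more RNA per cell cannot be told apart.

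PUB19 had the widest range of levels of the 3 genes. In unwounded leaf 13 its values were 4.52, 4.22 and 4.23 in replicates 1, 2 and 3. In leaf 13 after wounding of leaf 8 they were 6.33, 7.30 and 7.69. The lowest array of the wounded plants lay well above the highest of the unwounded plants, and replicate 1 was the low one among them. The difference of the group means, 4.32 ± 0.17 against 7.10 ± 0.70 (SD, n = 3), was 2.78 with a standard error (SE) of 0.41 in limma, or 6.86-fold.

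In leaf 8 PUB19 was already high without current. The wired leaves without current had 6.43, 8.06 and 7.34, with a mean of 7.28 ± 0.82 (SD, n = 3). The leaves after current had 8.18, 9.43 and 9.43, with a mean of 9.01 ± 0.72 (SD, n = 3). These groups did not overlap, although the highest array without current and the lowest with current were only 0.12 apart. The change was 1.74 (SE 0.41), or 3.33-fold.

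PUB24 changed by less. Its values in unwounded leaf 13 were 4.03, 4.22 and 3.57, and after distal wounding 4.75, 5.27 and 5.69. Each array of the wounded plants was above each of the unwounded ones, and the means were 3.94 ± 0.34 and 5.23 ± 0.47 (SD, n = 3). The change was 1.29 (SE 0.23), or 2.45-fold. In leaf 8 the values were 4.90, 4.96 and 4.74 without current and 5.30, 5.85 and 5.10 with it. Those groups were apart too, with means of 4.87 ± 0.11 and 5.42 ± 0.39 (SD, n = 3) and a change of 0.55 (SE 0.23), or 1.47-fold. The size of that change rested much on 1 array: without current replicate 2 it was 0.34.

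PUB43 had the smallest SD of the 3 genes in each group except leaf 8 after current. Unwounded leaf 13 had 4.86, 4.83 and 4.79, and leaf 13 after distal wounding had 7.56, 7.81 and 7.96. The distance between these groups was many times the spread within either, with means of 4.82 ± 0.04 and 7.77 ± 0.20 (SD, n = 3) and a change of 2.95 (SE 0.16), or 7.73-fold. In leaf 8 the values were 5.66, 5.55 and 5.61 without current and 6.31, 7.10 and 6.62 with it. The arrays with current were all higher and more spread, with means of 5.60 ± 0.06 and 6.67 ± 0.40 (SD, n = 3). The change was 1.07 (SE 0.16), or 2.10-fold.

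**Figure D1:**
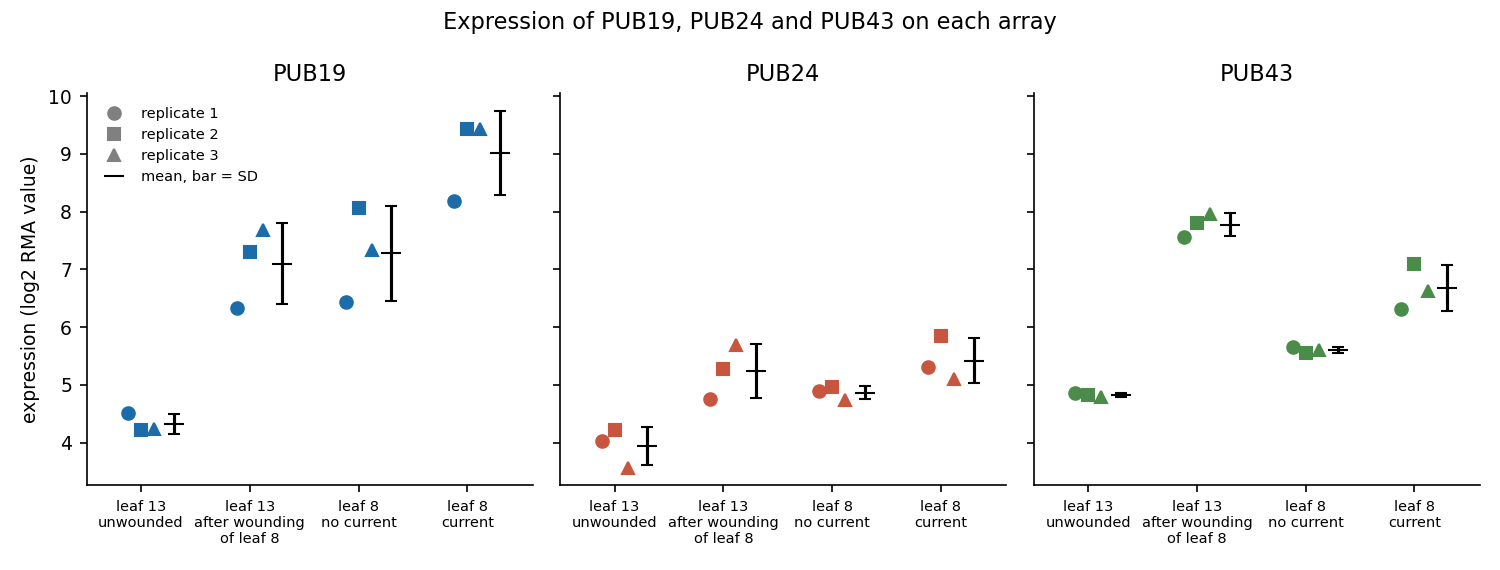
Expression of PUB19, PUB24 and PUB43 as log2 RMA values (vertical axis) in the 4 groups (horizontal axis); each point is 1 array, its shape gives the replicate number, and the bar beside it is the group mean with the SD of 3 arrays. In all 3 genes the treated arrays lie above their controls, and PUB19 is as high in wired leaf 8 without current as in leaf 13 after distal wounding.

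Set among all genes, the 3 changes after distal wounding lay near the top of the list. Of the 13356 genes, 49 had a larger log2 change than PUB43, 57 a larger one than PUB19 and 253 a larger one than PUB24. All 3 genes were at least 2-fold higher, as were 2.52% of all genes. In 3 of 3 the wounded arrays lay wholly above the unwounded arrays, as they did for 10.6% of all genes. The vascular marker SWEET11, the 1 measured of 3, was lower in the same comparison, at 8.04 to 8.22 against 8.55 to 8.69 (limma adjusted p = 0.0477). The guard cell markers FMA and AT1G22690 were both at -0.32 and not called (limma adjusted p = 0.240 and 0.203). The sum of their log2 values was 13.0 to 13.6 against 13.8 to 14.3. The part of these markers in the changes was not tested. These shares describe genes that were picked with their values known and are read no further.

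After current the order was different. PUB19 had the largest change of the 3, with 38 genes above it, while 113 genes had a larger change than PUB43 and 329 a larger one than PUB24. PUB19 and PUB43 were at least 2-fold higher, as were 0.898% of all genes, and PUB24 was not. In 3 of 3 the arrays with current lay above those without, against 7.34% of all genes. The trichome marker TRY, the 1 measured of 2, ranged from 4.39 to 5.24 without current and from 5.03 to 5.94 with it. Its change was 0.68 (SE 0.21) and was not called (limma adjusted p = 0.0978). FMA was at -0.02, AT1G22690 at -0.04 and SWEET11 at -0.19, and none was called. The part of these markers in the changes was not tested. The median change of all genes was -0.03 after distal wounding and -0.02 after current.

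**Figure D2:**
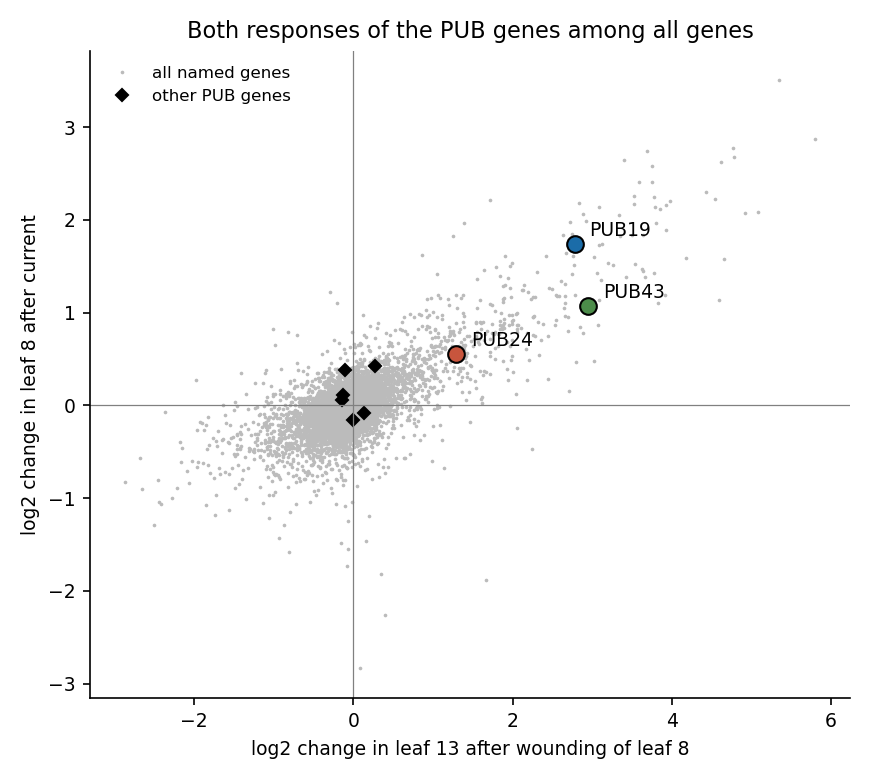
Log2 change in leaf 13 after wounding of leaf 8 (horizontal axis) against log2 change in leaf 8 after current (vertical axis) for all 13356 named genes (grey), the 6 other PUB genes (black diamonds) and PUB19, PUB24 and PUB43 (coloured circles). The 3 named genes lie in the upper right, at 2.78 and 1.74, 1.29 and 0.55, and 2.95 and 1.07, while the 6 others lie near the origin.

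In all 3 genes the change after current was smaller than the change after distal wounding, and the gap was not the same. For PUB43 the current response minus the wound response was -1.88 (SE 0.22). For PUB24 it was -0.74 (SE 0.32), and for PUB19 it was -1.04 (SE 0.57). The gap of PUB19 was the least certain: it ran from -1.47 to -0.62 when single arrays were left out. It was -0.62 without current replicate 1 and -0.65 without no-current replicate 2. Leaf position and stimulus differ together between the responses and cannot be told apart.

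The order of the groups by level also differed between the genes. PUB43 had 4 separate levels, from unwounded leaf 13 at 4.82 through wired leaf 8 at 5.60 and leaf 8 after current at 6.67 to leaf 13 after wounding at 7.77, and no neighbouring groups overlapped. PUB19 was highest in leaf 8 after current, at 9.01, and its wounded leaf 13 and wired leaf 8 overlapped, with means 0.17 apart against SDs of 0.70 and 0.82. PUB24 separated unwounded leaf 13, at 3.94, from the other groups, whose arrays overlapped from each group to the next, at 4.87, 5.23 and 5.42.

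The control leaves differed from each other in all 3 genes. PUB19 was 2.95 higher (SE 0.41) in wired leaf 8 than in unwounded leaf 13, or 7.75-fold, a difference of the size of its wound response, and 17 of the 13356 genes had a larger one. PUB24 was 0.93 higher (SE 0.23) and PUB43 0.78 higher (SE 0.16). In 3 of 3 the wired leaves lay wholly above the unwounded leaves, as they did for 22.1% of all genes. This comparison shares its arrays with the others, since each group serves as a control there. Leaf position, the wire and the experiment differ together and cannot be told apart. The guard cell markers moved as well, with FMA at -0.99 and AT1G22690 at -2.36. The sum of their log2 values was 13.8 to 14.3 in unwounded leaf 13 and 10.2 to 11.3 in wired leaf 8. For the vascular marker SWEET11 the level was 8.55 to 8.69 and 8.97 to 9.49. The part of these markers in the differences of the PUB genes was not tested.

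The other PUB genes had smaller changes. Since PUB19, PUB24 and PUB43 were picked with their values known, this gap is a description only. After distal wounding limma called 0 of 6 at an adjusted p under 0.05, with 0 at an unadjusted p under 0.05, where 14.2% of all genes were called (5.81% higher and 8.42% lower). Their changes ran from -0.14 to 0.27 with a median of -0.06. The closest relatives of PUB24 had small ones: PUB22 was at 0.13 (SE 0.12, 95% interval -0.12 to 0.38) and PUB23 at 0.27 (SE 0.15, 95% interval -0.06 to 0.59). Without 1 array the change of PUB23 ran from 0.16, without wounded replicate 2, to 0.40. PUB22 was named because it acts with PUB24, after its values were seen. It lay between 2.90 and 3.35 on all arrays, PUB15 between 2.39 and 2.85, and PUB23 between 2.74 and 3.36 in leaf 13. These levels lay in the range of the root markers, 1.93 to 3.52. RMA compresses changes near background, so small changes there do not show that a gene did not respond. PUB49, a U-box protein that also carries a cyclophilin domain, was at -0.14 (SE 0.09) and PUB15 at -0.13 (SE 0.11). PUB25 and PUB26, a related pair known to act on the immune kinase BIK1 and in the cold, were at -0.01 (SE 0.24) and -0.11 (SE 0.12).

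After current limma again called 0 of 6, where 3.96% of all genes were called (2.38% higher and 1.58% lower), although 2 were higher at an unadjusted p under 0.05. PUB23 was at 0.42 (SE 0.15, limma adjusted p = 0.180), from 3.65, 3.53 and 3.12 without current to 3.72, 4.01 and 3.84 with it, so that its groups just failed to overlap. Its change was 0.26 without no-current replicate 3 (limma adjusted p = 0.534). PUB26 was at 0.38 (SE 0.12, limma adjusted p = 0.111), from 6.10, 5.71 and 5.91 to 6.26, 6.09 and 6.50, with overlapping groups. PUB22 was at -0.08 (SE 0.12), PUB25 at -0.16 (SE 0.24), PUB15 at 0.11 (SE 0.11) and PUB49 at 0.06 (SE 0.09).

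**Figure D3:**
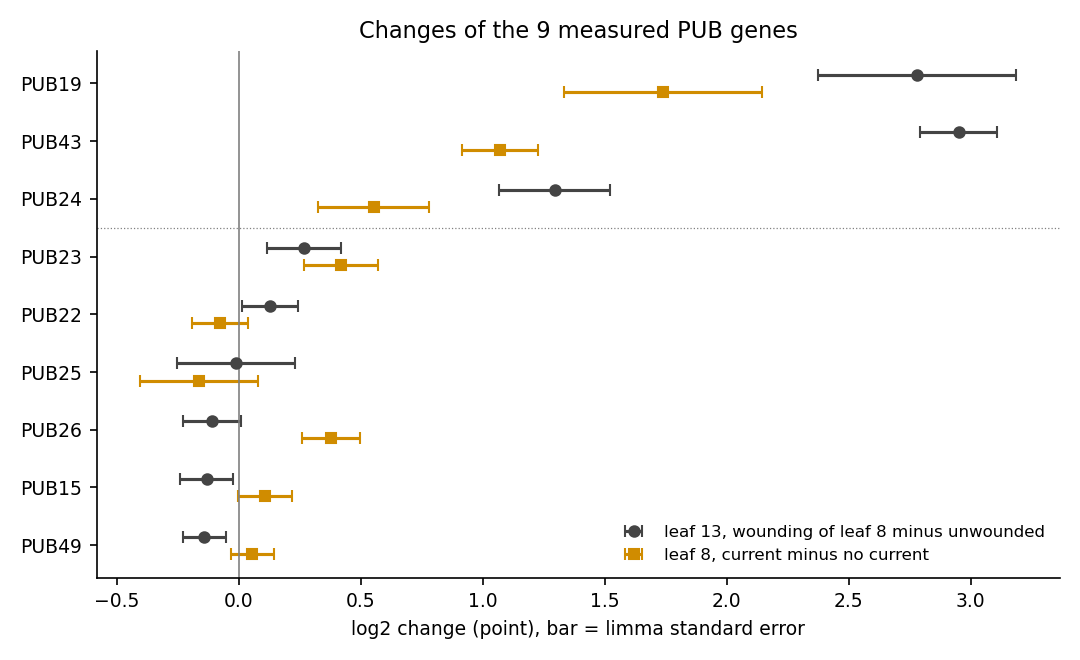
Log2 change (horizontal axis) of the 9 measured PUB genes (vertical axis) in leaf 13 after distal wounding (circles) and in leaf 8 after current (squares); bars are limma's standard error from 12 arrays. PUB19, PUB43 and PUB24, above the dotted line, have their largest changes after wounding, while the 6 others stay between -0.16 and 0.42.

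The difference of the responses was called for 0 of 6 other PUB genes, where 2.85% of all genes were called (1.33% higher and 1.52% lower), with 1 higher at an unadjusted p under 0.05. That gene was PUB26, at 0.49 (SE 0.17, limma adjusted p = 0.193), followed by PUB15 at 0.24. Between the control leaves 1 of 6 was called, where 32.9% of all genes were (16.6% higher and 16.2% lower). PUB23 was 0.55 higher (SE 0.15, limma adjusted p = 0.0111) in wired leaf 8, at 3.44 ± 0.28 against 2.88 ± 0.18 (SD, n = 3), but not without no-current replicate 1, where its difference was 0.45 (limma adjusted p = 0.0559). PUB25 was at 0.31 (SE 0.24) and PUB26 at -0.25 (SE 0.12).

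Within groups the 3 genes did not vary alike in size. PUB19 had an SE of 0.41 for a difference of groups, and 0.112% of all genes had a larger one. For PUB24, with an SE of 0.23, the share was 1.88%, and for PUB43, with 0.16, it was 11.0%, while the median gene had 0.11. In wounded leaf 13 all 3 genes were lowest in replicate 1 and highest in replicate 3. In leaf 8 after current PUB24 and PUB43 were highest in replicate 2, PUB19 was at 9.43 in both replicates 2 and 3, and PUB19 and PUB43 were lowest in replicate 1. Without current PUB19 ranged over 1.63 between arrays and PUB43 over 0.11. PUB19 was lowest in replicate 1 there too. Its deviations from the group mean in replicate 1 were -0.78 in wounded leaf 13, -0.85 in wired leaf 8 and -0.84 after current. In unwounded leaf 13 that deviation was 0.19. The cause was not tested.

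Deviations from the group means, which leave out the treatments, correlated over the 12 arrays with r = 0.70 for PUB24 and PUB43, r = 0.56 for PUB19 and PUB43 and r = 0.46 for PUB19 and PUB24. These are descriptions over arrays that also share their total signal. With the treatments left in, r was 0.79, 0.61 and 0.87 for the same pairs. PUB23, with the treatments left in, had r = 0.84 with PUB19, 0.72 with PUB24 and 0.32 with PUB43. Over deviations from the group means that order was reversed, with r = 0.33, 0.49 and 0.51.

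**Figure D4:**
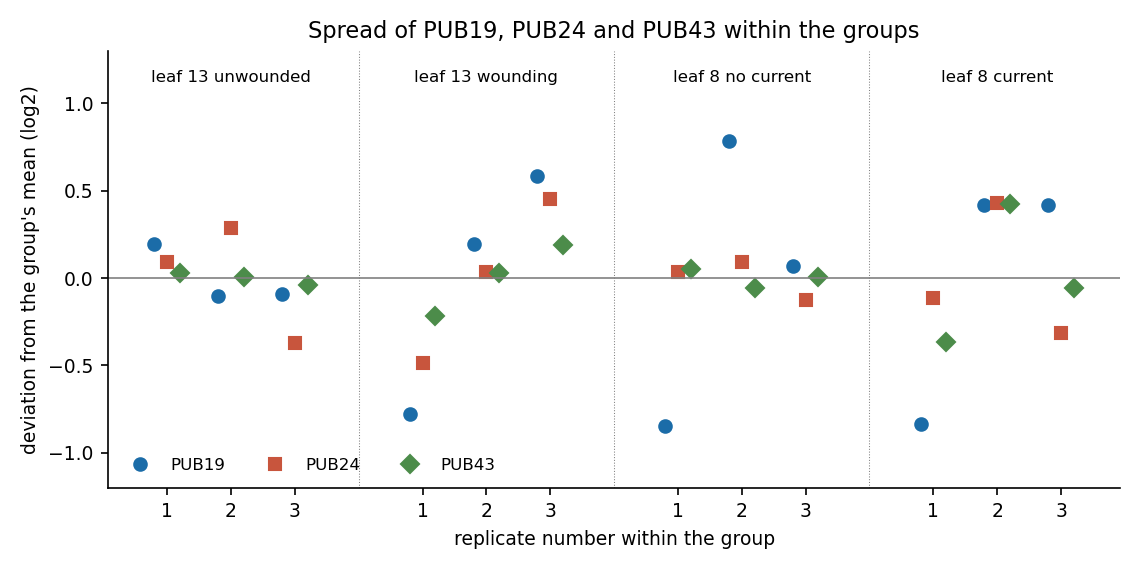
Deviation of PUB19, PUB24 and PUB43 from the mean of their group (vertical axis, log2) on each array (horizontal axis, replicate number within the 4 groups). PUB19 spreads most outside unwounded leaf 13, and in wounded leaf 13 the 3 genes keep the same order of arrays.

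Genes with the most similar profiles were sought among the other 13355 genes by Pearson's r over the 12 arrays, which the group means dominate. Nearest to PUB43 were AT1G32920, AT5G14700, AT5G47730, AT4G02360 and OPCL1, with r from 0.989 to 0.995. OPCL1, a coenzyme A ligase of jasmonate synthesis, had changes of 3.64 after distal wounding and 1.83 after current. Nearest to PUB19 was BZIP60, which encodes a transcription factor of the unfolded protein response, with r = 0.981 but changes of only 0.44 and 0.36. AT5G19875, AT1G67920, SFP1 and AT4G27657 followed it, with r from 0.972 to 0.976. Nearest to PUB24 were AT1G16670, AT3G13910, AT5G25930, AT5G57150 and AT5G18470, with r from 0.954 to 0.977. No gene was in more than 1 of these lists.

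By deviations from the group means the lists were again different. The top 5 for PUB19 were Hsp70-2, a chaperone gene, AT1G17230, AT5G52580, SGP1 and AT5G04760, with r from 0.930 to 0.949. For PUB24 they were AT5G13200, AT3G44760, AT4G25780, AT3G46110 and AT2G46620, with r from 0.921 to 0.962, and for PUB43 AT3G57120, AT3G01830, AT4G27652, AT1G19680 and AT5G38130, with r from 0.919 to 0.946. The highest of 13355 values of r over 12 arrays are high by selection, so they rank genes and show no more.

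On the chromosome PUB43 lies next to a gene with a like response. By the order of genes in the reference table (assembly TAIR10.1), AT1G76380 is the neighbour of PUB43, and it was named after its values were seen. It had 4.64, 4.81 and 4.92 in unwounded leaf 13 and 7.56, 7.86 and 8.12 after distal wounding, a rise of 3.06 (SE 0.22, limma adjusted p = 1.71e-07). In leaf 8 it had 4.97, 4.81 and 5.06 without current and 6.05, 7.04 and 6.05 with it, a rise of 1.43 (SE 0.22, limma adjusted p = 0.00147). Both rises are close in size to those of PUB43, 2.95 and 1.07. Between the control leaves AT1G76380 was at 0.16 (SE 0.22, limma adjusted p = 0.639), against 0.78 (SE 0.16) for PUB43. Over the 12 arrays its r with PUB43 was 0.97, and over deviations from the group means 0.89.

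The annotated spans of PUB43 and AT1G76380 do not overlap, and the genes have probe sets of their own. PUB43 does overlap 2 other annotated genes, the protein-coding AT1G76400 and a non-coding RNA gene. AT1G76400 was at -0.17 (SE 0.09) after distal wounding and at -0.10 (SE 0.09) after current. Of the 10 nearest measured genes around PUB43, 5 on each side, 2 were higher and 2 lower after wounding, where 5.81% of all genes were higher and 8.42% lower. After current 1 was higher, where 2.38% of all genes were. Among the lower genes was ATL8, whose call was lost when single arrays were left out, as given with the RING ligases. Around PUB24 the counts were 1 and 1 after wounding and 0 after current, and around PUB19 limma called 0 of 10 in either comparison, with changes from -0.21 to 0.18. The spans of PUB19 and PUB24 overlap no other annotated gene.

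Other genes of the ubiquitin pathway were taken from lists that were chosen with earlier results of these data known. Measured has the same meaning as for the markers, so the listed genes not measured may still be on the array. Of 39 listed activating and conjugating enzymes 13 were measured, and after distal wounding 1 rose and 1 fell, with a median change of -0.15, where 14.2% of all genes were called and the median was -0.03. The conjugating enzyme gene UBC16 rose by 0.87 (SE 0.15, limma adjusted p = 7.74e-04), and UBC19, linked to cell division, fell by 0.42 (SE 0.11, limma adjusted p = 0.0149). UBC19 lost its call when unwounded replicate 2 was left out (limma adjusted p = 0.0818) and when wounded replicate 3 was (0.0750). UBC18 was at 0.29 (SE 0.12) and UBC20, the close relative of UBC19, at -0.15 (SE 0.20). After current limma called 0 of 13, where 3.96% of all genes were called, with 1 higher at an unadjusted p under 0.05, UBC16 at 0.50 (SE 0.15, limma adjusted p = 0.0897), which passed when no-current replicate 2 was left out (0.0409) and when current replicate 1 was (0.0130). UBC20, at -0.37 (SE 0.20), passed without current replicate 1 (limma adjusted p = 0.0489).

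Of 34 listed partners and targets of U-box ligases 3 were measured. BIK1, a kinase below immune receptors, rose by 0.84 (SE 0.18, limma adjusted p = 0.00404) after distal wounding and was at -0.02 (SE 0.18) after current, a difference of -0.86 (SE 0.25, limma adjusted p = 0.100) that was not called. It was called when wounded replicate 1 (0.0130) or current replicate 2 (0.0497) was left out, and with the replicate block (limma adjusted p = 0.0342). RPN12a, a proteasome subunit that PUB22 and PUB23 act on, was at -0.05 (SE 0.10) and -0.24 (SE 0.10), and AT2G28390, listed as the vesicle fusion gene MON1, at 0.01 (SE 0.10) and 0.05 (SE 0.10). Of 2 measured ATL RING ligases, of 80, ATL8 fell by 0.39 (SE 0.12, limma adjusted p = 0.0440) after wounding. It was not called when unwounded replicate 1 was left out (limma adjusted p = 0.184), nor for unwounded replicate 2 (0.0945), wounded replicate 1 (0.142) or wounded replicate 2 (0.138). After current ATL8 was at -0.33 (SE 0.12, limma adjusted p = 0.178), and it passed without current replicate 3 (limma adjusted p = 0.0383). ATL63 was at -0.13 (SE 0.12) and 0.02 (SE 0.12). Of 2 measured ligases of hormone and stress signalling, of 33, SLY1, the F-box protein that removes the growth repressors of gibberellin signalling, fell by 0.54 (SE 0.11, limma adjusted p = 0.00391) after wounding and was at 0.02 (SE 0.11) after current, a difference of 0.56 (SE 0.16, limma adjusted p = 0.0907) that was called only when wounded replicate 1 was left out (0.0318), among the alternatives run. CUL4, a ligase scaffold, was at -0.12 (SE 0.09) and 0.01 (SE 0.09). After current limma called 0 genes of these 3 lists, where 3.96% of all genes were called, and at an unadjusted p under 0.05 RPN12a and ATL8 were lower.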

How the data were processed

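The deposited values are log2 expression values that the authors made with RMA (Affymetrix Power Tools), as the submitters' processing notes record; versions and the log base are not given in the sources used here, and the range of 1.46 to 13.3 is that of the log2 scale. RMA equalises arrays, so a change shared by most genes is removed, and it compresses changes near background. Of 22810 probe sets, 64 were controls, 13513 had 1 gene in the platform's annotation, 503 several and 8730 none. Genes with several probe sets were averaged, and 13286 of 13356 took their symbol from the reference by identifier.

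Limma 3.58.1 in R 4.3.3 fitted 1 mean per group over 12 arrays (8 residual and 6.31 prior degrees of freedom), two-sided, with Benjamini-Hochberg adjustment over all 13356 genes and a threshold of 0.05. It was tested on simulated data. An exact test of 3 against 3 arrays cannot go below p = 0.1. Replicate numbers were not used to pair the arrays in the main fit. Deviations of same-numbered arrays correlated with r from -0.07 to 0.05 over genes in the wound, current and control comparisons. Such values over all genes cannot exclude a pairing that acts on some genes.

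The members and lists were chosen with earlier results of these data known. Named were all PUB genes past the threshold and the 2 largest others per comparison, up to 4 called and 2 other members per list, and the 5 most similar genes; PUB22 and AT1G76380 were added. The gene lists hold 39, 34, 80 and 33 names, and a name shared by several genes was not used. Alternatives were quantile normalization, median centring, a robust trend, array weights, omission of dim genes, single probe sets, each comparison alone, a replicate block, and omission of each array of the groups compared.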

Additional observations from a re-analysis of the deposited data

Results flagged for a closer look

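For AT1G76380, the gene next to PUB43, the response to current and the response to distal wounding differed in limma's test of the difference itself. The rise after current was smaller by 1.63 on the log2 scale, as the current response minus the wound response was -1.63 (SE 0.30, limma adjusted p = 0.00889, and 7.39e-05 to 0.0340 over the alternatives). The values were 1.43 after current and 3.06 after wounding, from all 3 arrays of a treated group above all 3 of its control group in both cases. The gene was picked after its values were seen, and leaf position and stimulus differ together.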

How the results depend on the processing

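The changes of PUB19, PUB24 and PUB43 kept their direction under all alternatives, and 193 values under alternatives moved by less than the replicate SD and 2 by more. Those were PUB43 between the control leaves, 0.78, which was 0.68 with quantile normalization and 0.68 with median centring. Median centring moved the groups by -0.07 to 0.07. Without 1 array PUB19 ran from 2.49 to 3.17 after wounding and from 1.31 to 2.16 after current, PUB24 from 1.07 to 1.54 and from 0.34 to 0.71, and PUB43 from 2.86 to 3.06 and from 0.86 to 1.25.

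With 22746 probe sets taken singly, higher and lower calls numbered 1598 and 2115 after wounding, 740 and 445 after current, 390 and 459 for the difference and 4247 and 4136 between the control leaves, against 776 and 1124, 318 and 211, 178 and 203, and 2223 and 2168. Current fitted alone gave 210 and 81, and array weights gave 331 lower. Without 1 array the current counts ran from 187 to 404 and from 79 to 324, those of the difference from 96 to 226 and from 123 to 266. The lowest current counts came without current replicate 2 and the highest without current replicate 1. Of the other PUB genes between the control leaves, 0 were higher without the dimmest 50%, where only PUB25, PUB26 and PUB49 were tested. PUB23, called in the main fit, was among the dim genes left out there. Without 1 array 0 to 1 were higher. With quantile normalization (-0.34, limma adjusted p = 0.0357) and median centring (-0.35, limma adjusted p = 0.0311) 1, PUB26, was lower.

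Signs turned for values near 0 that were not called in the comparison given. After wounding PUB25 was 0.033 with quantile normalization and 0.033 with median centring and ran from -0.13 to 0.13 without 1 array, PUB22 from -0.0021 to 0.22 and AT2G28390 from -0.043 to 0.066. After current CUL4 was -0.0087 with quantile normalization (-0.022 to 0.052 without 1 array), BIK1 0.0078 with median centring and 0.084 with array weights (-0.15 to 0.086), AT2G28390 -0.0056 with array weights (-0.0093 to 0.12), and PUB25 ran from -0.44 to 0.062, UBC19 from -0.12 to 0.021, ATL63 from -0.040 to 0.070 and SLY1 from -0.057 to 0.075. For the difference PUB25 ran from -0.43 to 0.072 and PUB23 from -0.0035 to 0.26. PUB49 between the control leaves was -0.048 with quantile normalization and -0.057 with median centring. The cause was not tested.

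ATL8 after wounding lost its call in limma with quantile normalization (adjusted p = 0.0543), median centring (0.0795) and a robust trend (0.0656), and UBC16 after current gained one with array weights (0.0417). The replicate block, which the check of pairing does not bear out, gave 762 higher and 1070 lower calls after wounding and 318 and 208 after current, ended the call of ATL8 (limma adjusted p = 0.0568) and added that of BIK1 for the difference (0.0342). The alternatives for similarity, AT1G76380 and the gene lists were chosen after seeing the data. For similarity 415 values of r moved by less than 0.05 and 5 by more, all 5 for PUB43, down to 0.826 for AT4G27652. The number of arrays, 3 a group, limits the precision of all values.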

Other observations

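Genes of ubiquitin-conjugating enzymes also differed between the control leaves. Their list, like the others, was chosen with earlier results of these data known. Of the 13 measured activating and conjugating enzymes 7 were higher in wired leaf 8 than in unwounded leaf 13 and 0 lower (limma, with 8 higher and 0 lower at an unadjusted p under 0.05), where 16.6% of all genes were higher and 16.2% lower. UBC30 was 0.78 higher (SE 0.10, limma adjusted p = 3.16e-05), UBC28 0.73 higher (SE 0.11, limma adjusted p = 1.04e-04) and UBC16 0.52 higher (SE 0.15, limma adjusted p = 0.0154), the last not called without unwounded replicate 3 (0.0714) or no-current replicate 2 (0.0829). BIK1 was 0.79 higher (SE 0.18, limma adjusted p = 0.00316), while ATL8 was at -0.56 (SE 0.12, limma adjusted p = 0.00227) and ATL63 at -0.45 (SE 0.12, limma adjusted p = 0.0119), which was not called without unwounded replicate 3 (0.0691) or no-current replicate 2 (0.0540). In the same comparison both guard cell markers were lower, AT1G22690 at -2.36 and FMA at -0.99, and the vascular marker SWEET11 was 0.70 higher, and their part in these differences was not tested. Leaf position, the wire and the experiment cannot be told apart in these values.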
